A study of Homo sapiens with 12 samples.

Results

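The genes described here are 6 enzymes of the tryptophan-kynurenine route (IDO1, AFMID, KMO, KYNU, HAAO and QPRT), the amino acid oxidase IL4I1 and the aryl hydrocarbon receptor AHR. These 8 genes, of 19919 gene rows in the count table, were found by symbol. They were chosen from their measured levels in the same 4 groups of libraries, so their levels and changes are given as a description, with no p-value. RNA was sequenced from Raji and Daudi, established Burkitt lymphoma B cell lines. Each line was represented by unedited wild-type cells and by clones in which Cas9, delivered by lentivirus with guides to exon 4 of FBXO11, had disrupted both copies of that gene. All cells were grown in RPMI medium with serum and received no other stated treatment. FBXO11 is the substrate receptor of a ubiquitin ligase known to act on BCL6. Raji gave 4 wild-type and 4 knockout libraries, and Daudi gave 2 of each. Every knockout clone had been drug-selected and grown from single cells, whereas the labels state no such step for the wild-type cells. The labels number the knockout libraries without saying which clone or guide a number stands for.

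The kynurenine pathway is the main route by which cells break down tryptophan. The dioxygenases IDO1, IDO2 and TDO2 open the ring, the formamidase AFMID releases kynurenine, and KMO, KYNU and HAAO carry it on towards quinolinate, which QPRT passes into NAD synthesis. IL4I1 is a secreted oxidase of phenylalanine, tyrosine and tryptophan, first known as a gene that interleukin 4 induces in B cells. Kynurenine and the indole products of IL4I1 are known ligands of AHR, a transcription factor that resides in the cytoplasm until ligand binds. In immune tissue these enzymes are known above all from macrophages and dendritic cells, and IDO1 is a classic target of interferon gamma.

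Library totals ran from 11.2M to 23.6M counts, and 3 counts, taken as the floor of detection, amounted to between 0.118 and 0.275 CPM. CPM are counts per 1M, scaled between libraries with TMM factors (trimmed mean of M-values). Reads had no molecular identifiers, so floors and count intervals cover counting error only. FBXO11 mRNA itself ranged from 68.6 to 118 CPM in unedited Raji and from 34.1 to 72.1 CPM in its knockout, and from 51.7 to 81.8 CPM in unedited Daudi and from 88.4 to 92.8 CPM in its knockout, and a count over the whole gene does not read a small edit in 1 exon. Raji wild-type replicates 3 and 4 were much closer to each other (chi-square 2.18 per degree of freedom) than any other pair within a group (21.9 to 171). The Raji knockout libraries formed close pairs, 1 with 2 (21.9) and 3 with 4 (49.1), that stood farther from each other (68.8 to 125). The labels do not call the replicates separate cultures, so every spread and every p-value may reflect technical variation. All 6 B cell markers examined were expressed in every library. Their summed level was lower in knockout in both lines, at 3053 to 3327 CPM in unedited Raji and 2369 to 2900.4 CPM in its knockout, and at 2679.8 to 3353 CPM in unedited Daudi and 2037 to 2304 CPM in its knockout. In Daudi MS4A1, the B cell surface protein CD20, was called lower (log2 change -1.14, edgeR adjusted p = 0.0357), and DESeq2 also called CD22 there. In Raji edgeR called 0 of the 6, with 3 at an unadjusted p under 0.05, and DESeq2 called CD79A, PAX5 and CD22. The markers did not all move together. Log2 changes were negative for 5 of the 6 in Raji and for 4 of the 6 in Daudi. They were positive for CD79B in both lines (0.18 in Raji, 0.04 in Daudi) and for PAX5 in Daudi (0.14). The part of the lower sum in the levels of the kynurenine genes was not tested.

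The 3 genes with the largest differences between knockout and wild type were KMO, KYNU and IL4I1, and the bases just before their starts are shown for that reason. The sequences are the 250 bases before the RefSeq start in GRCh38.p14, on the strand of the gene, and capitals mark a motif match. RefSeq promoter entries were found for 7 of the 8 genes.
KMO: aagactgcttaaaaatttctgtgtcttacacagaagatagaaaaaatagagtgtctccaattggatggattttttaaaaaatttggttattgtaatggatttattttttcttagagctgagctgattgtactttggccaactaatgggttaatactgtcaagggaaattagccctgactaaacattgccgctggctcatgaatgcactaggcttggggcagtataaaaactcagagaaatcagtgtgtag
KYNU: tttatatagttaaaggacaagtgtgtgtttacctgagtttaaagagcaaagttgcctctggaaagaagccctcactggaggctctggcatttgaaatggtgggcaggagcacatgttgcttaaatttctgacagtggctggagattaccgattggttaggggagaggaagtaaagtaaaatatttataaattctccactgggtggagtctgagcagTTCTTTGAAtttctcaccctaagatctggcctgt
IL4I1: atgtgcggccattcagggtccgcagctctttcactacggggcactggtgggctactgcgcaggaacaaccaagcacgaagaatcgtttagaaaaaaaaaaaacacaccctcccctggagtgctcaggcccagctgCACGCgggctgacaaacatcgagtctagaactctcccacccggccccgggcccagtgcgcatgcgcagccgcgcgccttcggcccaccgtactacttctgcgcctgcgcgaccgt
The KMO stretch is chr1:241532128-241532377 (plus strand), that of KYNU is chr2:142877414-142877663 (plus strand), and that of IL4I1 is chr19:49929505-49929754 (minus strand). The start that GENCODE 29 gives for each of these genes falls inside the window, so part of each stretch is transcribed under that annotation. GC content was 36.0% for KMO, 42.4% for KYNU and 61.6% for IL4I1. Only 1 start was searched for each of these 3 genes, and any other start of the same gene was not covered. On both strands, 3 motifs were searched. These were TTCNNNGAA, like the GAS site known from interferon gamma targets, GAAANNGAAA, like the ISRE of interferon regulatory factors, and GCGTG, the core that AHR binds, and no match overlapped another. KYNU held the GAS-like letters from 34 to 26 bases before its start, as did 6.57% of 35116 promoters of the same length. IL4I1 held the AHR core on the opposite strand from 115 to 111 bases before its start, and AFMID held it, also on the opposite strand, from 15 to 11 bases before its start, as did 32.2% of those promoters. The ISRE-like letters, present in 3.02% of promoters, were in none of the windows of the 7 genes, and KMO held none of the 3 motifs.

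KMO and KYNU, which act one after the other on kynurenine, were both more than 10 times lower in Raji knockout than in unedited Raji. KYNU was also lower in Daudi knockout. IL4I1 lay lower in the knockout libraries of both lines, but the fit over all genes called neither difference. AFMID and QPRT differed little between knockout and wild type in either line, while QPRT set the lines themselves far apart. IDO1, HAAO and AHR gave 6, 3 and 0 counts in all 12 libraries together, of 229.7M counts. RNA was taken from whole cultures, in which fewer cells carrying a transcript and less of it per cell cannot be told apart.

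**Figure D1:**
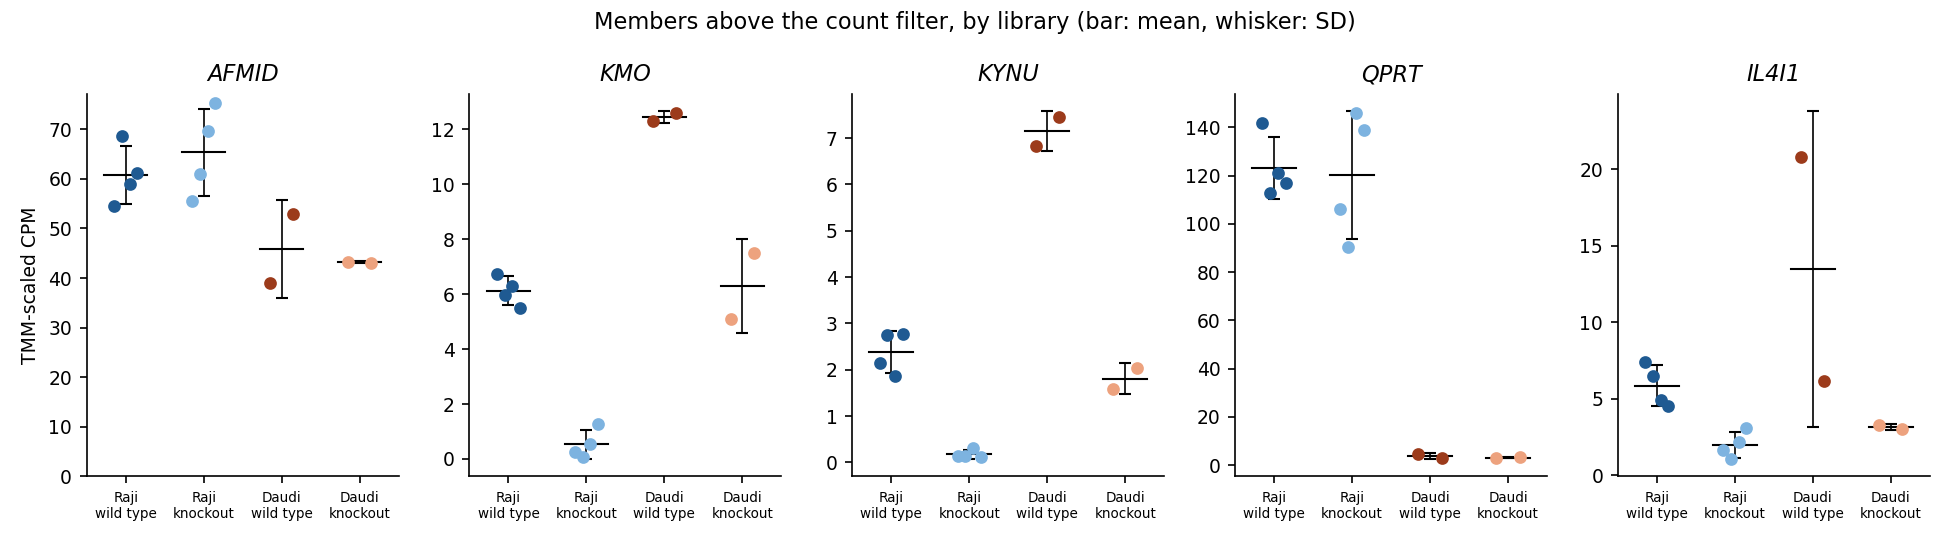
Level of the 5 genes above the count filter in each library, in TMM-scaled CPM on a linear axis, with the horizontal bar at the group mean and the whisker showing the SD (n = 4 per Raji group, n = 2 per Daudi group). KMO, KYNU and IL4I1 show every knockout library below every wild-type library of its line, whereas AFMID and QPRT overlap between knockout and wild type.

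At the head of the pathway, IDO1 (ENSG00000131203, chromosome 8) was counted in Daudi wild type only, with 1 count in replicate 1 and 5 in replicate 2, and 0 counts in the other 10 libraries. Its mean there was 0.144 CPM, where 3 counts over the group amount to 0.0676 CPM. With Daudi knockout set at its own floor of 3 counts over the group, 0.059 CPM, the wild-type total stood 2.29-fold above that floor. This takes the 6 wild-type counts, of which 5 come from 1 library, as free of counting error, so it is not a lower limit. The other dioxygenases were as scarce. TDO2, the liver enzyme, had 1 count in Raji knockout, and IDO2, the homologue next to IDO1, had 1 count in Daudi wild type, with 0 in all other groups. Transcripts of ring-opening enzymes were thus at or near the detection limit in both lines, which over all libraries is 0.013 CPM for 3 counts.

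AFMID (ENSG00000183077, chromosome 17 from 78187317 to 78207701, plus strand), which turns formylkynurenine into kynurenine, was well expressed in every library. The Raji wild-type libraries held 54.5, 68.6, 59.0 and 61.2 CPM and the Raji knockout libraries 55.6, 61.1, 69.7 and 75.3 CPM. The Daudi wild-type libraries held 38.9 and 52.9 CPM and its knockout libraries 43.3 and 43.0 CPM. The knockout and wild-type libraries overlapped in both lines, and the log2 changes were 0.10 (SE 0.14) in Raji and -0.09 (SE 0.20) in Daudi. All Raji libraries lay above all Daudi libraries, with a log2 difference of 0.41 (SE 0.17) between the wild types that was not called.

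KMO (ENSG00000117009, chromosome 1 from 241532134 to 241595642, plus strand) is the mitochondrial hydroxylase that makes 3-hydroxykynurenine. It gave 113, 65, 115 and 99 counts in the Raji wild-type libraries and 6, 1, 9 and 24 counts in the knockout libraries. In CPM these were 6.74, 5.96, 6.28 and 5.49 against 0.268, 0.0677, 0.552 and 1.28. The wild-type libraries were tightly grouped and every knockout library lay below them, with replicate 2 under the 3-count floor and replicate 4 the highest. The mean went from 6.12 ± 0.528 to 0.542 ± 0.532 CPM (SD, n = 4 per group), a log2 change of -3.46 (SE 0.52), or 11-fold. The ratio of the summed counts, scaled for library size, was 11.1 (95% interval 7.97 to 15.7). Without knockout replicate 4 the log2 change was -4.33.

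The Daudi wild-type libraries had 12.3 and 12.6 CPM of KMO (296 and 256 counts), and the Daudi knockout libraries 5.09 and 7.5 CPM (129 and 191 counts). The knockout libraries were again lower, with a log2 change of -0.98 (SE 0.62) that was not called and a ratio of summed counts of 1.98 (1.72 to 2.28). The Daudi knockout mean, 6.3 ± 1.71 CPM (n = 2), was close to that of unedited Raji, and those groups overlapped. From high to low, the order of groups was Daudi wild type, then Daudi knockout and Raji wild type with overlapping libraries, then Raji knockout. In GENCODE 29, 28.4% of the exonic bases of KMO overlap OPN3, an opsin gene transcribed the other way, and the library kit does not keep strand. OPN3 had 1 count in all Raji libraries together, and 123 and 39 counts in Daudi wild type and 12 and 7 in Daudi knockout. In Raji the overlap therefore had next to no OPN3 counts beside it, and in Daudi OPN3 was lower in knockout too, with its part in the KMO difference not tested.

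KYNU (ENSG00000115919, chromosome 2 from 142877498 to 143055832, plus strand) is the hydrolase that cleaves kynurenine and 3-hydroxykynurenine. Raji wild-type libraries gave 36, 30, 34 and 50 counts and knockout libraries 3, 2, 5 and 2 counts. The CPM values were 2.15, 2.75, 1.86 and 2.77 against 0.134, 0.135, 0.307 and 0.107. The groups lay far apart, and the knockout values were at or close to the floor in every library. The mean went from 2.38 ± 0.454 to 0.171 ± 0.0917 CPM (SD, n = 4 per group), a log2 change of -3.77 (SE 0.39), or 13.7-fold. With only 12 counts in the knockout group the ratio of summed counts was 14.1 with a wide interval (7.84 to 27.9).

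Daudi wild type had 6.84 and 7.46 CPM of KYNU (165 and 151 counts) and Daudi knockout 1.58 and 2.04 CPM (40 and 52 counts). The replicates were close to each other within both groups, and the groups did not overlap. The log2 change was -1.98 (SE 0.44) and the ratio of summed counts 3.94 (3.11 to 5.02). The order of groups matched that of KMO except that the middle groups changed places by their means, 2.38 ± 0.454 CPM for Raji wild type and 1.81 ± 0.329 CPM for Daudi knockout, which overlapped. Fits that leave out 1 library share all the others, and all 8 genes were chosen from these same levels. For none of them is anything read from how often a call was kept. When 1 library was left out, the log2 change of KYNU ran from -2.17 to -1.80 in Daudi and from -4.18 to -3.61 in Raji. Leaving out Raji wild-type replicate 3 or 4, or any Daudi library, lost the Daudi call.

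HAAO (ENSG00000162882, chromosome 2, minus strand), the dioxygenase that opens the ring of 3-hydroxyanthranilate, had 1 count in Raji wild-type replicate 3 and 1 count each in Raji knockout replicates 3 and 4. Both Daudi groups had 0. At this depth no level could be told from 0 in any group, the floors over a group being 0.0415 to 0.0676 CPM. ACMSD, the enzyme that diverts the product of HAAO away from quinolinate, had 0 counts in every library.

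QPRT (ENSG00000103485, chromosome 16 from 29679008 to 29698699, plus strand) converts quinolinate into nicotinate mononucleotide, the entry into NAD. The Raji wild-type libraries held 142, 113, 121 and 117 CPM and the Raji knockout libraries 106, 90.4, 146 and 139 CPM. The Daudi wild-type libraries held 4.48 and 2.96 CPM and its knockout libraries 2.88 and 3.30 CPM. Knockout and wild type overlapped in both lines, with log2 changes of -0.04 (SE 0.17) and -0.27 (SE 0.28), while every Raji library lay far above every Daudi library. The wild-type lines differed by 5.04 (SE 0.29) on the log2 scale, 33.0-fold. QPRT shares 15.7% of its exonic bases with AC009086.2 on the same strand, for which the table lists 42 counts in Raji knockout replicate 1 and at most 6 in any other library.

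IL4I1 (ENSG00000104951, chromosome 19 from 49889654 to 49929539, minus strand) gave 124, 71, 90 and 82 counts in Raji wild type and 37, 16, 35 and 58 counts in Raji knockout. In CPM these were 7.40, 6.51, 4.92 and 4.55 against 1.65, 1.08, 2.15 and 3.10. The lowest wild-type and the highest knockout library were neighbours but did not overlap. The mean went from 5.84 ± 1.34 to 1.99 ± 0.855 CPM (SD, n = 4 per group), a log2 change of -1.54 (SE 0.41), with a ratio of summed counts of 2.84 (2.34 to 3.46). The difference was not called by edgeR over all libraries, and it was called by DESeq2 and by edgeR fitted to the Raji libraries alone (-1.55). Its log2 change ran from -1.83 to -1.34 when 1 library was left out, with a call in 3 of those 12 fits.

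In Daudi the IL4I1 wild-type libraries stood apart from each other, at 20.8 and 6.18 CPM (502 and 125 counts), and the knockout libraries were at 3.31 and 3.03 CPM (84 and 77 counts). Both wild-type libraries were above both knockout libraries, but replicate 1 decided the size. The log2 change was -2.09 (SE 0.57) with all libraries, -0.96 if wild-type replicate 1 was left out and -2.71 if replicate 2 was. Of these, edgeR called only the last. By means the order was Daudi wild type, Raji wild type, Daudi knockout and Raji knockout, and each line's wild type overlapped with that of the other line, as did the knockouts. IL4I1 shares 13.1% of its exonic bases with NUP62, a nuclear pore gene on the same strand, with 152 ± 33.0 CPM in Raji wild type against 143 ± 35.7 CPM in its knockout (n = 4 per group) and, in Daudi, 219 ± 66.5 CPM against 208 ± 53.3 CPM (n = 2 per group). A further 2.9% overlaps ATF5, a stress-response factor on the other strand, whose libraries ran from 2.57 to 9.26 CPM in Raji and from 137 to 512 CPM in Daudi, the highest being wild-type replicate 1. How reads in the shared bases were assigned was not given in the sources used here, while their part in the IL4I1 values was not tested.

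AHR (ENSG00000106546, chromosome 7 from 16916359 to 17346152, plus strand) had 0 counts in all 12 libraries, which allows a level of up to 0.013 CPM over all libraries. AC019117.2, listed on the same strand and sharing 29.4% of the exonic bases of AHR, also had 0 counts throughout. The dimer partner of AHR, ARNT, had 30.5 ± 2.73 CPM in Raji wild type against 33.7 ± 2.5 CPM in its knockout (n = 4 per group) and, in Daudi, 41.2 ± 9.87 CPM against 42.5 ± 0.0584 CPM (n = 2 per group). CYP1B1, a known AHR target, had 1 count in all libraries together. CYP1A1 had group means from 0.109 to 0.964 CPM and was lower in Raji wild type than in Daudi wild type (log2 difference -2.86, edgeR adjusted p = 0.0328). That difference rests on 7 counts in Raji wild type and 36 in Daudi wild type, and DESeq2 did not call it. Other AHR targets examined had higher levels. Group means ran from 1.05 to 4.11 CPM for AHRR, from 1.66 to 17.3 CPM for NQO1 and from 12.6 to 98.3 CPM for TIPARP. Between the wild types edgeR called NQO1 higher in Raji (log2 difference 3.38) and TIPARP lower (-2.90), and did not call AHRR. In that comparison 45.1% of all tested genes were called.

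**Figure D2:**
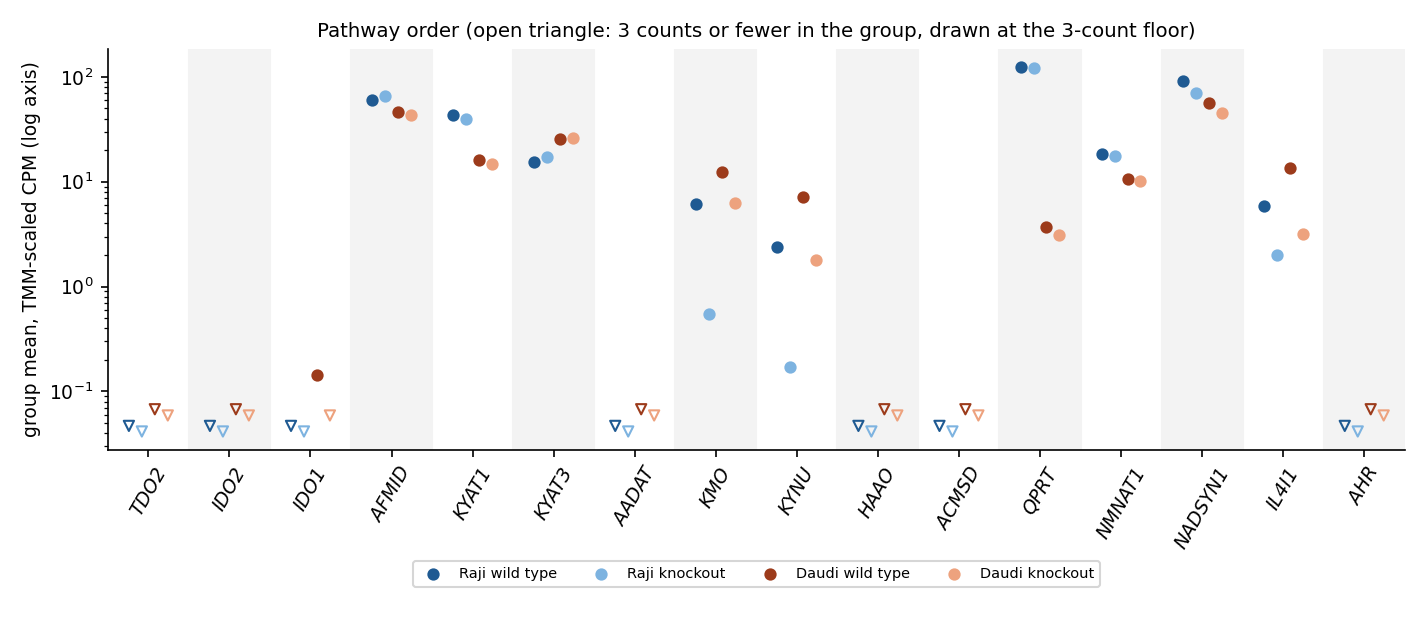
Group means in TMM-scaled CPM (log axis) for genes in the order of the pathway from ring opening to NAD synthesis, then IL4I1 and AHR; open triangles stand at the 3-count floor of a group with 3 counts or fewer. KMO and KYNU are lowest in Raji knockout, at 0.542 and 0.171 CPM, while AFMID before them lies at 43.2 to 65.4 CPM in all 4 groups and HAAO after them lies at the floor.

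Levels of different genes were compared per kilobase of the principal transcript. In Raji wild type QPRT led with 52.7 CPM per kilobase, followed by AFMID with 35.2, IL4I1 with 2.43, KMO with 1.16 and KYNU with 0.156. In Raji knockout the order was the same, with 0.103 for KMO and 0.0111 for KYNU. Daudi wild type had AFMID in front with 26.5 CPM per kilobase, then IL4I1 with 5.61, KMO with 2.37, QPRT with 1.59 and KYNU with 0.467. The place of KYNU rests on the length used, since its principal transcript is 15316 bases long and its coding sequence 1395 bases. Per kilobase of coding sequence KYNU stood at 5.13 in Daudi wild type, above QPRT with 4.18, and KMO with 8.55 passed IL4I1 with 7.64.

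Of the 8 genes, 5 passed the filter on low counts, namely AFMID, KMO, KYNU, QPRT and IL4I1. In Raji knockout 2 of these 5 were called lower (KMO and KYNU) and 0 higher by edgeR at an adjusted p under 0.05, where 1.68% of 12027 tested genes were called lower and 2.6% in either direction. DESeq2 called IL4I1 as well. In Daudi knockout 1 of 5 was called lower (KYNU) and 0 higher, against 1.82% lower and 2.62% in either direction, and DESeq2 called KYNU and IL4I1. Every knockout library lay below every wild-type library for 3 of 5 in Raji, where 5.99% of tested genes did so, and for 3 of 5 in Daudi, where 19.6% did. Since these contrasts were used to choose the genes, nothing is read from the comparison with those shares.

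**Figure D3:**
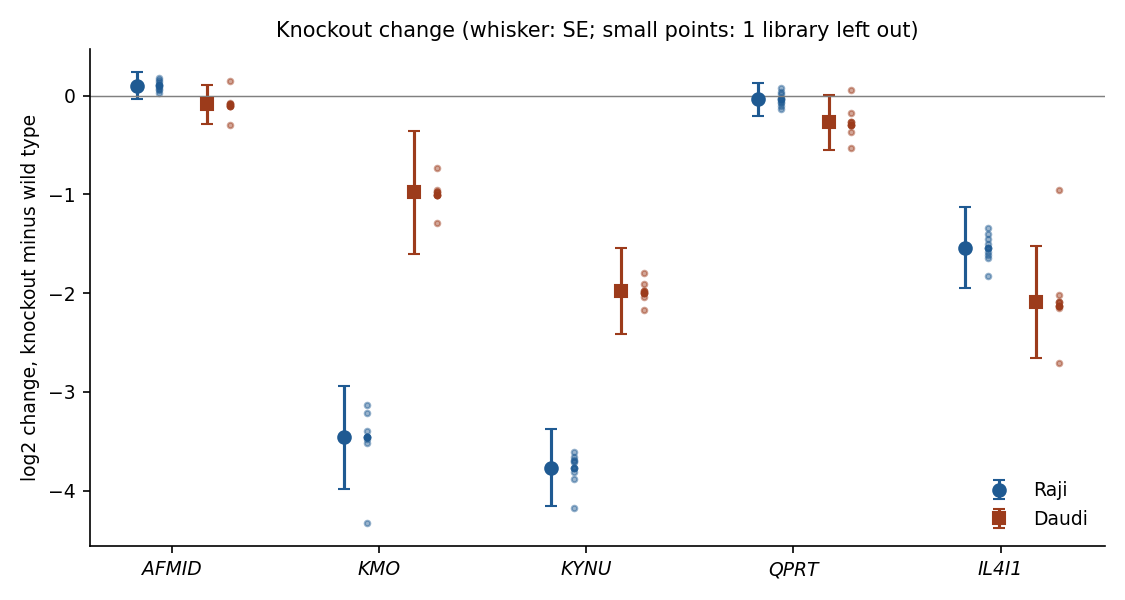
Change of each gene in knockout against wild type on the log2 scale, with circles for Raji, squares for Daudi, whiskers of 1 SE, and small points for the fits that left out 1 library. KMO and KYNU in Raji lie between -4.33 and -3.13 in every plotted fit, AFMID and QPRT lie around 0, and the isolated point of IL4I1 in Daudi at -0.96 is the fit without wild-type replicate 1.

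The Raji log2 change minus the Daudi one was -2.48 (SE 0.81) for KMO and -1.79 (SE 0.57) for KYNU. For IL4I1 the difference was 0.55 (SE 0.68), for AFMID 0.19 (SE 0.24) and for QPRT 0.24 (SE 0.33). Of these 5 differences edgeR called 0, beside 0.773% of all tested genes, and since the same levels chose the genes nothing is read from this count. Between the wild-type lines 3 of 5 were called, QPRT higher in Raji and KYNU (-1.59, SE 0.36) and IL4I1 (-1.21, SE 0.46) lower, where 45.1% of all tested genes were called. KMO, 2.04-fold lower in Raji wild type than in Daudi wild type, was not called (-1.03, SE 0.52).

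The genes most like each of the 5 were taken as the 3 with the highest Pearson correlation of log2 CPM over the 12 libraries. These libraries share lines and genotypes, so the coefficients describe group differences to a large part. For KMO they were NCKAP1 (r = 0.967), UACA (0.959) and SCPEP1 (0.95), and for KYNU they were KCNN4 (0.948), NCKAP1 again (0.946) and TMCC3 (0.936). NCKAP1, a subunit of the WAVE actin regulator, had group means of 2.2, 0.307, 4.69 and 1.83 CPM in Raji wild type, Raji knockout, Daudi wild type and Daudi knockout, the same order as KYNU. IL4I1 was most like RBCK1 (r = 0.974), ZCCHC3 (0.957) and TDRD7 (0.936). RBCK1, a subunit of the linear ubiquitin ligase, had group means of 89.9, 51.8, 222 and 70.5 CPM in the same order of groups. QPRT was most like ADNP2, RHPN2 and DMXL2 (r = 0.997 to 0.998), all near 0 in Daudi, and AFMID was most like MKKS, NHP2 and DNAJC11 (0.956 to 0.97).

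The rest of the pathway was followed in 78 further genes, of which 53 were tested. In Raji knockout 1 of the 53 was called higher and 0 lower by edgeR, beside the 2.6% of all tested genes called in either direction, with 4 lower at an unadjusted p under 0.05 and 5 called in either direction by DESeq2. Their median log2 change was -0.04, beside 0.01 over all tested genes. In Daudi knockout 0 were called higher and 4 lower, beside the 1.82% of all tested genes called lower, with a median of -0.02 beside 0.00, and 1 had a higher level at an unadjusted p under 0.05. The called genes reported here are described with the others taken by the naming rule.

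Among entry enzymes, transporters and other users of tryptophan, 0 of 9 tested genes were called by edgeR in either line, with 1 in each line at an unadjusted p under 0.05. WARS1, the enzyme that loads tryptophan onto its transfer RNA, had 319.6 ± 68.4 CPM in unedited Raji against 147 ± 37.1 CPM in knockout (n = 4 per group; log2 change -1.12, edgeR adjusted p = 0.0635), and DESeq2 called it. In Daudi WARS1 had 588 ± 366 CPM in wild type against 582 ± 65.4 CPM in knockout (n = 2 per group, log2 change -0.02). The transporter SLC36A4 had a log2 change of 0.97 in Daudi (edgeR adjusted p = 0.256). Of the aminotransferases that draw kynurenine off to kynurenate, KYAT1 and KYAT3 differed little between knockout and wild type. KYAT1 had group means of 43.7 and 39.9 CPM in Raji and 16.2 and 14.6 CPM in Daudi, and KYAT3 had 15.3 and 17.4 CPM in Raji and 25.6 and 26 CPM in Daudi. AADAT, which shares that activity, had 0 counts in every library. GOT2, listed with them, had group means of 414 and 396 CPM in Raji and of 198 and 297 CPM in Daudi. Both Daudi knockout libraries lay above both wild-type libraries (log2 change 0.59, edgeR adjusted p = 0.401). In the glutarate branch DHTKD1 and GCDH were the tested genes of 4 listed, neither being called (log2 changes -0.24 and -0.16 in Raji, edgeR adjusted p = 0.547 and 0.771).

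NAD synthesis had 9 tested genes and none called by edgeR in either line, with 1 in Raji and 0 in Daudi at an unadjusted p under 0.05 and NADK called by DESeq2 in Raji. The NAD kinase NADK had a log2 change of -0.29 in Raji (edgeR adjusted p = 0.182) and the riboside kinase NMRK1 one of 0.57 (edgeR adjusted p = 0.418). Of 8 tested NAD-consuming genes, CD38 was called. This ectoenzyme, which cleaves NAD on the surface of B and plasma cells, had 168, 70.9, 135 and 134 CPM in the Raji wild-type libraries and 318, 344, 279 and 225 CPM in the knockout libraries. Every knockout library lay above every wild-type library, and CD38 rose by 1.20 on the log2 scale (SE 0.25, edgeR adjusted p = 0.0294). Daudi wild type had 437 ± 156 CPM of CD38 and Daudi knockout 274 ± 9.96 CPM (n = 2 per group; log2 change -0.67, edgeR adjusted p = 0.427), and the difference between the lines' changes did not pass (edgeR adjusted p = 0.0742). The Raji call was kept in 7 of 12 fits without 1 library and was lost when knockout replicate 1, 2 or 3 or wild-type replicate 3 or 4 was left out, with log2 changes from 0.99 to 1.37 over all 12.

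Around AHR, 1 of 8 tested partners and targets was called. TIPARP, an AHR target that modifies AHR by ADP-ribosylation, fell in Daudi knockout from 145 and 52.0 CPM to 19.9 and 18.9 CPM (log2 change -2.34, SE 0.40, edgeR adjusted p = 0.0108). It was not called without wild-type replicate 1 (-1.43) or without either knockout library (-2.38 and -2.30), and Raji had 13.1 ± 1.55 CPM in wild type against 12.6 ± 3.19 CPM in knockout (n = 4 per group). Beside IL4I1, 1 of 5 tested oxidases and enzymes of phenylalanine and tyrosine breakdown was called. DDO, the D-aspartate oxidase, gave 33 and 16 counts in Daudi wild type and 0 in both knockout libraries (edgeR adjusted p = 0.0245). Its wild-type total stood 18.7-fold above a floor of 3 counts over the knockout group. That call was lost without wild-type replicate 1 or either knockout library.

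Of 12 regulators known to act upstream of IDO1 or IL4I1, all tested, 2 were called lower in Daudi knockout, IRF1 being the one reported here, and 0 were called by edgeR in Raji, where 2 had an unadjusted p under 0.05 and DESeq2 called JAK2 and IFNGR1. IRF1, a transcription factor of the interferon response, fell from 149 and 51.6 CPM to 24.1 and 22.4 CPM (log2 change -2.11, SE 0.44, edgeR adjusted p = 0.0279). It lost its call without Raji wild-type replicate 4, Daudi wild-type replicate 1 (-1.15) or either Daudi knockout library, and 22.0% of its exonic bases overlap C5orf56 on the other strand.

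From a list of 18 interferon response genes edgeR called 15 lower in Daudi knockout, and the median log2 change of the 18 was -5.98. Without knockout replicate 2 the count was 9. Their median level was 355 CPM in Daudi wild-type replicate 1 and 121 CPM in replicate 2, and knockout had 4.57 and 1.16 CPM. IL4I1 followed the same order among the wild-type libraries (20.8 and 6.18 CPM), while KMO (12.3 and 12.6 CPM) and KYNU (6.84 and 7.46 CPM) were nearly equal in them. These Daudi wild-type libraries were the least alike pair within any group over all genes (chi-square 171 per degree of freedom). The part of that general difference in the shared order was not tested. Between the knockout libraries IL4I1 (3.31 and 3.03 CPM) again had the order of the interferon median. KMO (5.09 and 7.5 CPM) and KYNU (1.58 and 2.04 CPM) had the opposite order. In Raji the median was 0.358 to 0.464 CPM in wild type and 0.0669 to 0.153 CPM in knockout. The knockout medians were at or near the floor, since 3 counts in a Raji knockout library amount to 0.134 to 0.203 CPM. Of the 18 genes edgeR called 0 in Raji, with 4 lower and 1 higher at an unadjusted p under 0.05, and DESeq2 called 3. The part of this response in the levels of the kynurenine genes was not tested.

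**Figure D4:**
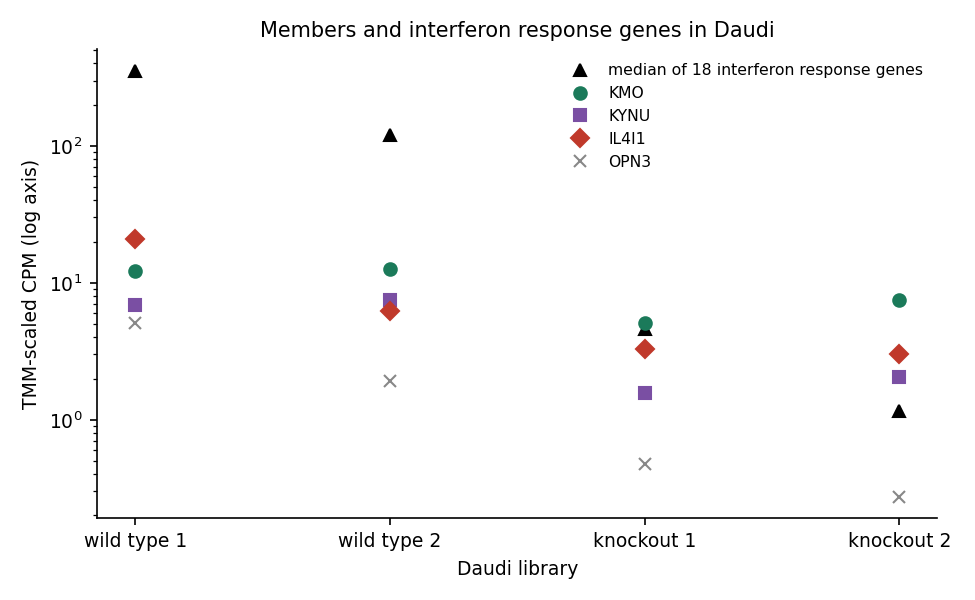
Levels in the 4 Daudi libraries in TMM-scaled CPM (log axis), with the median of 18 interferon response genes as triangles and KMO, KYNU, IL4I1 and OPN3 as separate symbols. The interferon median and IL4I1 are higher in wild-type replicate 1 (355 and 20.8 CPM) than in replicate 2 (121 and 6.18 CPM), while KMO and KYNU are nearly level between them.

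Markers of macrophages and dendritic cells, which are known for these enzymes, were examined in the same libraries. The summed level of the 10 markers was 3.21 to 7.94 CPM in Raji wild type, with 1.03 to 2.88 CPM in Raji knockout, and 31.0 to 59.9 CPM in Daudi wild type and 14.2 to 21.3 CPM in Daudi knockout. This sum was lower in knockout in both lines, as KMO and KYNU were, and its part in their values was not tested. Of the 4 tested markers CSF1R and CD68 had lower levels in knockout and ITGAM and LYZ had positive log2 changes, in both lines. CSF1R, the macrophage growth factor receptor, fell in Raji from 1.26 ± 0.303 to 0.146 ± 0.112 CPM (n = 4 per group; log2 change -3.11, SE 0.46, edgeR adjusted p = 0.00468), while Daudi had 24.6 ± 1.40 CPM in wild type against 9.56 ± 4.48 CPM in knockout (n = 2 per group; edgeR adjusted p = 0.143). CD68 had log2 changes of -2.54 in Raji (edgeR adjusted p = 0.145) and -5.26 in Daudi (edgeR adjusted p = 0.0515), where wild type gave 27.7 and 1.28 CPM. DESeq2 called CSF1R and CD68 in both lines, and called neither ITGAM nor LYZ. The integrin chain ITGAM had log2 changes of 0.36 in Raji (edgeR adjusted p = 0.903) and 0.26 in Daudi (edgeR adjusted p = 0.947). The lysozyme gene LYZ had log2 changes of 1.47 in Raji, on 5 counts in all (edgeR adjusted p = 0.663), and 0.35 in Daudi, where the group mean was 3.63 CPM without the edit and 4.61 CPM with it (edgeR adjusted p = 0.895). The lower sum therefore lay in CSF1R and CD68, and the mean levels of ITGAM and LYZ were not lower. The defining marker CD14 had group means of 0.0494 to 0.177 CPM and FCGR3A had 2 counts in all libraries together. Liver markers summed to at most 0.373 CPM and markers of T and NK cells to at most 7.16 CPM. The epithelial and fibroblast list summed to 15.9 to 34.2 CPM in Raji wild type, with 5.23 to 20.0 CPM in Raji knockout, nearly all of it COL1A1, and to at most 0.871 CPM in Daudi.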

How the data were processed

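Transcripts were measured in 12 libraries of Raji and Daudi cells. Per the labels' protocols, libraries came from DNase-treated total RNA with a TruSeq kit for polyadenylated RNA that does not mark strand. Raw counts for each gene, as whole numbers, were deposited by the authors in 1 table that was neither normalised nor pooled. RSEM 1.3.0, STAR 2.5.0 and the builds GRCh38 and hg38 appear in the submitters' processing notes, which do not say how each was used. How reads shared by several genes were counted was not given in the sources used here.

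For the fits here, edgeR 4.0.16 (R 4.3.3) was run on those counts. The default low-count filter left 12027 genes, libraries were scaled by TMM, and 1 robust quasi-likelihood model covered all 12 libraries in 4 groups (common biological coefficient of variation 26.1%, 8 residual degrees of freedom). Benjamini-Hochberg adjustment ran over all tested genes, with calls at an adjusted p under 0.05. DESeq2 1.42.0 was an alternative. The others were no low-count filter, relative log expression scaling, each line alone, each library left out, Raji wild-type replicates 3 and 4 summed, and, added after seeing the data, also both close pairs of Raji knockout libraries summed. The fitting steps were tested on simulated data. Count ratios have exact 95% intervals. Of the table's rows 19689 were found in GENCODE 29, which gave positions, lengths and exon overlaps. Promoters came from RefSeq.

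The 8 genes and the lists were chosen with earlier results of these data known. Named were the 8 genes, every gene of a pathway list called in either knockout contrast or else the 2 with the smallest p, genes with overlapping exons, and the 3 most correlated genes. Other genes were named after their values were seen: KYAT1, KYAT3, AADAT, GOT2, TDO2, IDO2, ACMSD, ARNT, AHRR, NQO1, CYP1A1, CYP1B1, NMNAT3 and markers. The interferon genes that the rule takes are given as a list only, and 1 other gene that it takes is not reported here.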

Additional observations from a re-analysis of the deposited data

Results flagged for a closer look

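Among 4 Raji knockout libraries, replicate 3 stood apart from the others for KYNU, at 0.307 CPM (5 counts) against 0.107 to 0.135 CPM. Within the same group replicate 1 stood apart for IRF1, at 68.7 CPM against 43.5 to 45.9 CPM. In Raji wild type, replicate 2 was low for NADK, at 201 CPM against 225 to 227 CPM. Each was marked because its gap to the nearest library was large against the range of its group, which chance alone does in about 1 in 20 groups of 4.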

How the results depend on the processing

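In Raji the 313 called genes became 818 with DESeq2, 139 with wild-type replicates 3 and 4 summed and 19 with the knockout pairs summed too (138 to 427 when 1 library was left out). The 2 called among the 8 genes became 1 with all pairs summed, KMO losing its call at the same log2 change of -3.46, and 3 with DESeq2 or each line alone, IL4I1 then being called (2 to 3 without 1 library). The 1 other pathway gene became 5 with DESeq2, 3 with each line alone and 0 with wild-type replicates 3 and 4 or all pairs summed (0 to 3).

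In Daudi the 315 became 711 with DESeq2, 113 with all pairs summed and 14 with each line alone (37 to 934, from the fits without knockout replicate 2 and wild-type replicate 2). The 1 called among the 8 genes became 2 with DESeq2 and 0 with wild-type replicates 3 and 4 summed, all pairs summed or each line alone (0 to 1). The 4 other pathway genes became 1 with all pairs summed and 0 with each line alone (0 to 7). Of 18 interferon response genes the 15 called became 2 with each line alone (9 to 15).

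The 93 genes whose change differed between lines became 502 with DESeq2, 29 with wild-type replicates 3 and 4 summed and 9 with all pairs summed (6 to 500). Among the 8 genes 0 became 1 with DESeq2 (0 to 1), and among other pathway genes 1 became 2 without the low-count filter, 3 with DESeq2 and 0 with wild-type replicates 3 and 4 or all pairs summed (0 to 5). Between wild-type lines the 5428 called genes ran from 4230 to 5647 without 1 library, the 3 among the 8 genes from 2 to 4 and the 30 others from 17 to 31.

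Near-zero changes turned sign. QPRT in Raji was 0.04, 0.02 and 0.08 without wild-type replicate 1, knockout replicate 1 and knockout replicate 2 (range -0.14 to 0.08), QPRT in Daudi 0.06 without wild-type replicate 1 (-0.53 to 0.06) and AFMID in Daudi 0.15 without wild-type replicate 2 (-0.30 to 0.15). The cause of these shifts was not tested, apart from the fewer libraries in the fits that sum or leave out some. With 1 library left in a Daudi group, its spread was taken from the other groups. Depth limits IDO1, HAAO and AHR, with 6, 3 and 0 counts in all. No paired analysis was possible because the labels give the groups no shared replicate numbers.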

Other observations

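NMNAT3, a mitochondrial adenylyltransferase on the way from the QPRT product to NAD, was chosen after its values were seen. Raji had 13.9 ± 0.957 CPM in wild type against 13.5 ± 2.53 CPM in knockout (n = 4 per group). Daudi gave 0 counts in both wild-type libraries and 1 count in the knockout libraries. The Raji wild-type total of NMNAT3 stood 207-fold above a floor of 3 counts over Daudi wild type. No p-value is given for a gene chosen in this way, and 45.1% of all tested genes were called between the wild types. Like QPRT, NMNAT3 separated the lines and not the genotypes, with a log2 change of -0.04 (SE 0.22) in Raji knockout. NMNAT1, the nuclear enzyme of the same step, was present in both lines, with group means of 18.5 and 17.5 CPM in Raji and 10.7 and 10.2 CPM in Daudi.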
